A study of Solanum lycopersicum with 2 samples.

Results

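Transcribed regions that lie far from genes were followed in tomato (Solanum lycopersicum) leaves. In the deposited table of 22315 loci, 4512 carried no gene, and 3754 of those had no strand. From these 3754 the regions were chosen that spanned at least 300 bp and lay at least 5000 bp from the nearest locus with a gene on the same chromosome. This left 535 regions, 14.3% of the unstranded gene-free loci, called far loci here. The rule used position and span, and no expression value directly. A gene-free locus is listed only where reads were found, however, and the far loci rested on at least 6 fragments over both libraries. Faint regions may thus have entered through the library in which they were higher, which was not tested.

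RNA came from young primary leaves of seedlings of 2 genotypes, wild type (CK-1) and transgenic plants overexpressing SlRBZ (OV-5-1, hereafter the SlRBZ library), with 1 library of each analysed here. The labels give neither the promoter of the transgene nor the number of lines or pooled plants. The design text speaks of duplicates, and whether a library is 1 of 2 or stands for both is not given in the labels. With 1 library per genotype, no difference has a replicate check and no test was made between them. All 7 leaf markers examined, Rubisco small subunit, CAB and photosystem II genes, stood at 305 FPKM or more in both libraries, and all 7 had lower values in the SlRBZ library. RBCS-3B, for example, had 121997 FPKM in wild type and 18085 in the SlRBZ library, and CAB5 5849 and 305. Such abundant transcripts weigh on the scale of FPKM, and other scalings are given beside the counts they move. None of 6 fruit and anther symbols was found in the table, so those were not analysed here.

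Tomato chromosomes carry most of their genes in the outer arms, while the wide regions around the centromeres are heterochromatic, rich in repeats and poor in genes. RNA from such sequence can come from long noncoding RNAs, from transposable elements, from extensions of known transcripts or from genes that an annotation lacks. In RNA sequencing without strand marks, strand is usually read from spliced reads, so an assembled region with no strand is usually one without a spliced read.

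The far loci were short, with a median span of 532 bp (quartiles 406 and 749, longest 2642 bp). Their median distance to a gene locus was 31270 bp, with quartiles of 11472 and 100596 bp. At least 100000 bp separated 136 of them from any gene locus, at least 500000 bp separated 15, and at least 1000000 bp separated 5. These distances are to gene loci listed in the table. Tomato gene identifiers are numbered in order along a chromosome, usually in steps of 10. Of 497 far loci flanked by listed identifiers on both sides, 41 lay between consecutive numbers, and at the other 456 the numbers skipped identifiers that stand at no locus between them. Of the 41, 39 had a mean of at least 1 FPKM, and their median difference (SlRBZ minus wild type, log2(FPKM + 1)) was −0.27. For 439 of the 456 it was 0.19. The region just inside the distance limit (XLOC_015215, 5021 bp from a gene locus) had 3.36 FPKM in wild type and 5.87 in the SlRBZ library. The one just outside (XLOC_012066, 4989 bp) read 1.28 and 2.91. At the span limit, XLOC_020553 (300 bp) read 22.5 and 8.32, and XLOC_017276, left out at 299 bp, read 1.34 and 7.01.

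Far loci were spread over every chromosome, from 31 on chromosome 2 to 56 on chromosome 3, with 23 on the unplaced sequence numbered 0. On chromosomes 1 to 12, taken from base 1 to the last listed locus, 63.3% of the far loci (324 of 512) fell in the middle 60% of the length. Of gene loci, 20.9% (3695 of 17703) lay there. The rule itself favours the gene-poor middle, so the sequence that could hold a far locus was measured as well. Of 781 Mb in all, 584 Mb lay at least 5000 bp from a gene locus. Windows of 1 Mb with under 5 gene loci held 56.6% of that sequence, but 31.0% of the far loci (166 of 535, exact 95% binomial interval 27.1% to 35.1%). The interval treats far loci as independent. As 53.3% of them lay in runs of close neighbours, described below, it is too narrow. Per Mb of far sequence, these gene-poor windows held 0.502 far loci and all other windows 1.46.

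The thinning with distance was gradual. Unstranded gene-free loci of at least 300 bp numbered 15.2 per Mb of sequence within 1 kb of a gene locus, 5.70 at 1 to 2 kb and 4.31 at 2 to 5 kb. Among the far loci the density was 2.31 per Mb at 5 to 10 kb, 1.64 at 10 to 20 kb and 1.23 at 20 to 50 kb. It was 0.979 at 50 to 100 kb, 0.587 at 100 to 200 kb, 0.438 at 200 to 500 kb and 0.246 beyond 500 kb. Far loci therefore became sparser at every step away from the listed genes. Unsequenced gaps and repeats in which reads cannot be placed were not measured, so their part in this gradient was not tested.

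**Figure D1:**
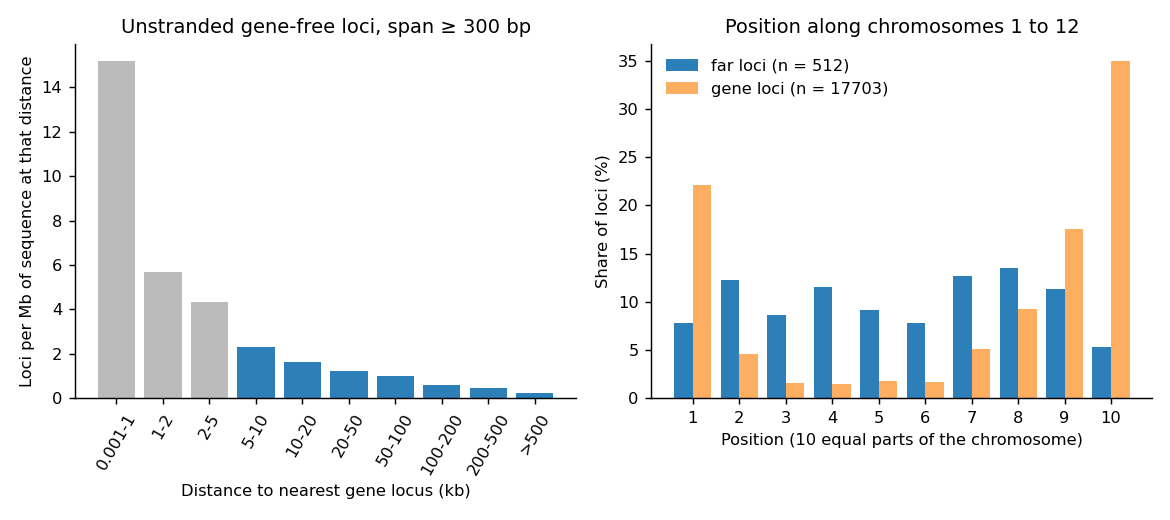
Left, unstranded gene-free loci of at least 300 bp per Mb of sequence at each distance from the nearest gene locus in kb, with far loci in blue and nearer ones in grey. Right, share in percent of far loci (blue) and gene loci (orange) in 10 equal parts of chromosomes 1 to 12. Density falls from 15.2 to 0.246 per Mb, and gene loci crowd into the outer parts while far loci do not.

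The side of the nearest gene on which a region lay was counted at each distance. Within 1 kb, 61.1% of unstranded gene-free loci (275 of 450) lay downstream of their nearest gene locus, past its end in the direction of transcription. At 1 to 5 kb the share was 53.9% (181 of 336), and at 5 to 10 kb 56.8% of far loci did so (63 of 111). Beyond that, downstream positions were the minority, with 36.7% at 10 to 20 kb (33 of 90), 44.4% at 20 to 100 kb (88 of 198) and 41.2% beyond 100 kb (56 of 136). Neighbouring far loci share a nearest gene, so these counts are not independent: the 535 far loci had 340 distinct nearest gene loci.

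Far loci were weakly transcribed. The median level was 4.17 FPKM in wild type (quartiles 1.39 and 8.89) and 4.57 FPKM in the SlRBZ library (2.79 and 8.13), where FPKM is fragments per kilobase and per 1 M fragments (M, mega). Gene loci had medians of 15.6 and 15.3 FPKM. Of the far loci, 439 (82.1%) had a mean of both libraries under 10 FPKM, 18 reached 30 and 2 reached 100. Because low FPKM values moved in whole steps of 1 fragment, the fragments behind a region could be recovered. The median far locus rested on 31.0 fragments over both libraries, and the SlRBZ library had a scaling total that was 1.91 times larger (14.3 M against 7.47 M). FPKM fell with span: loci of 300 bp to under 400 bp had medians of 7.58 and 7.81 FPKM, and those of 1000 bp or more 2.66 and 3.28. Between the same classes the median number of fragments over both libraries rose from 24.0 to 77.0. At a short span 1 fragment is worth more FPKM, and the part of this in the fall was not tested. By distance, the median level in wild type was 5.21 FPKM at 5 to 10 kb, 3.10 at 100 to 200 kb, 4.46 at 200 to 500 kb and 1.88 beyond 500 kb (15 loci). In the SlRBZ library these medians were 5.05, 4.94, 3.90 and 3.30 FPKM.

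A single region stood far above the others. XLOC_017179 (chromosome 6, 23828891 to 23829217) stood at 1634 FPKM in wild type and at 486 in the SlRBZ library, a 3.36-fold difference. It was 125046 bp from the nearest gene locus, Solyc06g036720.2, which read 12.1 and 11.4 FPKM. It alone made up 28.3% of the summed FPKM of the far loci in wild type and 11.5% in the SlRBZ library. The next, XLOC_022230 (chromosome 9, 60861292 to 60861924), read 178 and 65.8 FPKM, 2.69-fold lower in the SlRBZ library. It lay 16297 bp downstream of Solyc09g072750.2, itself at 375 and 217 FPKM. All such folds were taken after 1 was added to each FPKM, so they come out too small at weak regions.

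In the same part of chromosome 6, XLOC_017177 (23163623 to 23164317) went the other way, with 9.36 FPKM in wild type and 132 in the SlRBZ library. That is 12.9-fold higher. Its nearest gene locus, which joins Solyc06g036520.1 and Solyc06g036540.1 at 24671 bp, read 40.1 and 26.9. The remaining members of the top 5 by level lie close together on chromosome 10. XLOC_004290 (45401796 to 45402229) read 65.0 and 96.7 FPKM, and XLOC_004291 (45420814 to 45421176) read 76.8 and 53.5. Neither differed by 2-fold, and they moved in opposite directions on either side of Solyc10g050520.1, which read 16.2 and 3.33 FPKM. Recovered fragments at these 5 regions were not whole numbers in both libraries. Whether their reads are shared with similar sequence elsewhere was not tested.

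Differences were read at far loci whose mean FPKM was 1 or more, which 514 of 535 reached. At 100 of these, 1 library was under 1 FPKM, 86 times wild type and 14 times the SlRBZ library. Of the 514, 120 (23.3%) were at least 2-fold higher in the SlRBZ library and 75 (14.6%) at least 2-fold lower. Over all 22013 loci of the table that reached this level, 14.4% were higher and 15.2% lower. The lower share was thus near that of the whole table, and the higher share was above it. The split depended on level, scaling, pseudocount and loci at 0. Among far loci above 0 in both libraries, 84 (17.6%) were higher and 74 (15.5%) lower, and with a pseudocount of 5 the counts were 30 and 31. At a mean of at least 5 FPKM 31 far loci were higher and 57 lower, and scaled without the 100 most abundant gene loci 204 were higher and 35 lower. With equal upper quartiles of gene loci it was 145 against 56. The median difference of the far loci, SlRBZ minus wild type in log2(FPKM + 1), was 0.16 (quartiles −0.52 and 0.92). That of gene loci was −0.05 (−0.60 and 0.47). Unstranded gene-free loci under 5000 bp from a gene locus were set beside them, a class that includes those overlapping one. Higher calls made up 27.7% of them and lower calls 15.4%, and their median was 0.28. Among stranded gene-free loci 19.2% were higher and 17.3% lower. Far regions too short for the rule, under 300 bp, had 31.1% higher and 22.3% lower. At a 4-fold limit, a difference of 2, 39 of the 514 far loci were higher and 19 lower, against 4.86% and 3.80% of all loci. Many of the 39 stood at 0 in wild type and are listed only through reads of the SlRBZ library. The 39 can therefore not be read as an excess.

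**Figure D2:**
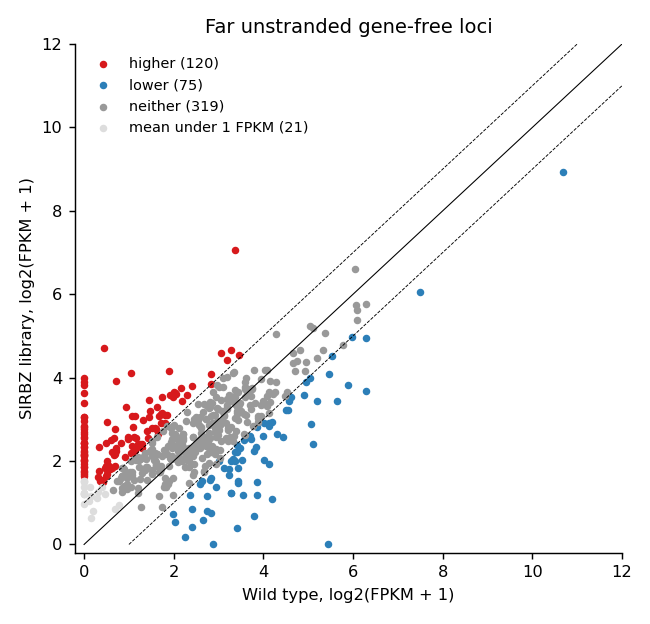
Level of each of the 535 far loci as log2(FPKM + 1) in wild type (x axis) and in the SlRBZ library (y axis), 1 point per locus. The solid line marks equal levels and the dashed lines a difference of 1. The 120 red points sit mostly at low wild-type levels, many at 0, and the 75 blue points spread over higher wild-type levels.

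The direction followed the level. Among far loci with a mean of 1 to 3 FPKM, 63 of 147 (42.9%) were higher in the SlRBZ library and 7 (4.76%) lower. Of these 147, 26 stood at 0 in wild type and were listed only through the SlRBZ library. At a mean of at least 1 FPKM such a locus is always called higher, so those 26 calls were fixed in advance. At 3 to 10 FPKM the shares were 18.5% and 15.5%, and at 10 to 30 FPKM 7.69% and 24.4%. At 30 FPKM or more, 1 of 18 was higher and 7 were lower, with a median difference of −0.68. Gene loci showed the same order, from 31.6% higher and 4.34% lower at 1 to 3 FPKM to 6.50% and 29.0% at 30 or more. Far loci exceeded gene loci in both directions at 3 to 10 FPKM, where 15.3% of gene loci were higher and 8.34% lower. At 10 to 30 FPKM the far loci had more lower calls than gene loci (24.4% against 9.45%) but not more higher calls (7.69% against 8.48%). At 3 to 10 FPKM the median span was 495 bp for far loci and 3689 bp for gene loci. Shorter regions rest on fewer fragments at the same FPKM, and the part of counting error in these shares was not tested. The shares describe 2 libraries, and no test of the differences between classes was possible.

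**Figure D3:**
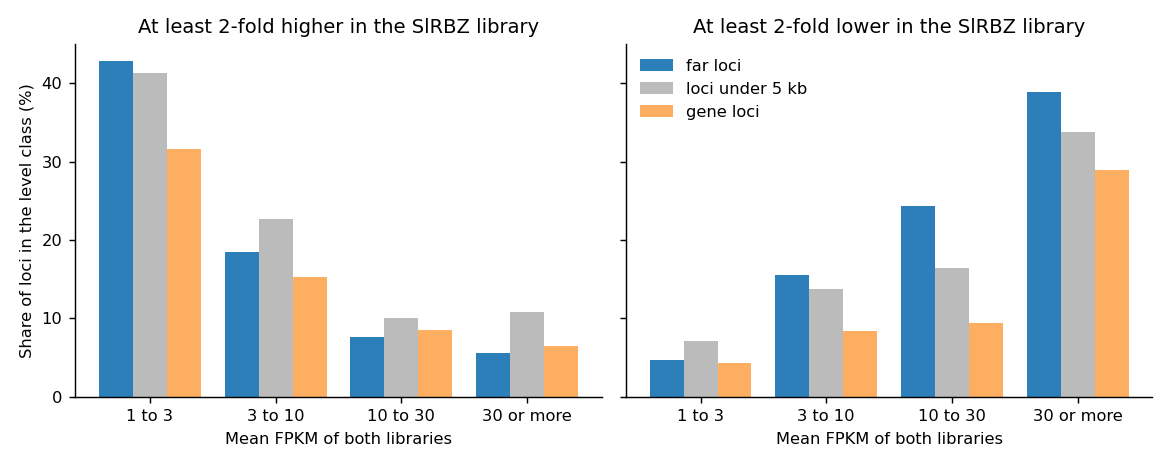
Share in percent of far loci (blue), unstranded gene-free loci of at least 300 bp under 5 kb from a gene locus (grey) and gene loci (orange) that were at least 2-fold higher (left) or lower (right) in the SlRBZ library, by mean FPKM of both libraries. In the far loci higher calls fall from 42.9% to 5.56% and lower calls rise from 4.76% to 38.9%. Gene loci run the same way, while higher calls of the nearer loci level off at 10.1% and 10.8%.

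Depth moved with these calls. Among far loci resting on under 20 fragments over both libraries, 39.4% were higher and 14.1% lower. With 100 or more fragments, 8 of 73 were higher and 17 (23.3%) lower. Where fragments were whole in both libraries (386 far loci), 95% Poisson intervals of the 2 libraries lay apart at 61 with a higher SlRBZ level and at 36 with a lower one. These make 15.8% and 9.33%, against 10.9% and 9.49% of 1443 like loci nearer to genes. A value of 0 counts as whole, so the upward counts here include loci at 0 in wild type. Such loci are listed only through the SlRBZ library, so the upward shares are no comparison of the genotypes. The whole-fragment limit kept 115 of the 120 higher loci but 45 of the 75 lower ones. Over all 514 far loci, with fractional fragments rounded, intervals lay apart at 68 (13.2%) upward and 71 (13.8%) downward. The nearer loci gave 10.3% and 11.4% of 1791, so both shares of the far loci were above those. Among far loci, upward cases outnumbered downward ones for whole fragments only. With whole fragments, 57 of the 115 higher loci and 30 of the 45 lower ones had intervals apart. The intervals cover counting error between these 2 libraries only.

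Of the 5 largest rises among far loci above 0 in both libraries, 4 rested on 1 or 2 fragments in wild type. The exception is XLOC_017177 on chromosome 6, at 9.36 FPKM there. XLOC_011817 (chromosome 3, 12259260 to 12259838) had 0.352 FPKM in wild type, which is 1 fragment, and 25.1 FPKM in the SlRBZ library, which is 136 fragments. The ratio of FPKM was 71.3, with an exact counting interval of 12.6 to 2836. Its nearest gene locus, Solyc03g044160.1 at 8927 bp, read 5.01 and 2.74 FPKM, so the neighbour did not rise with it. XLOC_022155 (chromosome 9, 40331045 to 40331557), 304598 bp from a gene locus, read 0.426 and 6.70 FPKM, a ratio of 15.7 (2.61 to 642).

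In wild type 46 far loci were listed at 0, and in the SlRBZ library 1 was. A gene-free locus at 0 in 1 library is listed only through reads of the other, and the SlRBZ library was 1.91 times deeper. The counts of loci at 0 are therefore no comparison of the genotypes, and the values below are of loci that entered through that library. The 46 read 0.968 to 15.0 FPKM in the SlRBZ library, with a median of 3.47 from 16.5 fragments. At the wild-type depth the same FPKM would amount to 4.19 to 43.5 fragments, with a median of 8.65. They lay on 12 of the 13 sequences, and 36 of them count among the 120 higher loci. XLOC_002657 (chromosome 1, 67643734 to 67644076) read 13.1 FPKM from 27 fragments in the SlRBZ library. That is at least 4.71-fold above the 2.79 FPKM that 3 fragments would give in wild type, the upper limit that a count of 0 allows. The converse case, XLOC_022186 (chromosome 9, 53892689 to 53893094), stood at 6.36 FPKM in wild type, from a fractional 9.84 fragments. It was listed at 0 in the SlRBZ library, 6.26-fold lower against the limit of 3 fragments.

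Among the falls, XLOC_013825 stood apart. This region (chromosome 4, 54274446 to 54275024) read 42.3 FPKM in wild type from 120 fragments. In the SlRBZ library it read 0.00161 FPKM, less than the worth of 1 fragment. This value is 0.00872 of a fragment, a fraction that was counted as a whole 0. Against the limit of 3 fragments it was 76.3-fold lower, a limit that holds only if the fraction stands for a count of 0. Whether reads of XLOC_013825 are shared with similar sequence elsewhere, which can give fractional fragments, was not tested. Its nearest gene locus, Solyc04g057990.2 at 11568 bp, read 37.0 and 26.9 FPKM. The other 4 of the 5 largest falls among far loci above 0 in both libraries rested on fewer fragments. XLOC_022081 (chromosome 9) read 17.4 and 1.14 FPKM from 16 and 2 fragments, a 15.3-fold ratio with an interval of 3.58 to 137. XLOC_022204 on chromosome 9 read 12.8 and 0.609 FPKM from 11 and 1 fragments, and XLOC_013784 on chromosome 4 read 9.65 and 0.316 from 16 and 1. XLOC_018960 (chromosome 7, 55282956 to 55283283) read 33.2 and 4.35 FPKM from 32 and 8 fragments, 7.63-fold lower (3.45 to 19.2).

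Far loci came in runs. With neighbours joined where the gap was at most 10000 bp, 285 of 535 (53.3%) formed 111 runs of 2 to 6, and 250 stood alone. The median gap inside runs was 283 bp. Members of a run may be pieces of 1 transcript, so they are not independent regions. With each run taken as 1 region, 361 regions remained, of which 345 had a mean of at least 1 FPKM. Of these, 79 (22.9%) were higher and 47 (13.6%) lower, close to the shares over single loci.

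Neighbours in a run differed alike. For 153 pairs of adjacent far loci with a gap under 2 kb, the differences correlated at Pearson's r = 0.70, and for 16 pairs at 2 to 10 kb at 0.79. Over 18 pairs at 10 to 100 kb r was −0.11, over 119 pairs at 100 kb to 1 Mb it was −0.02, and over 174 pairs farther apart 0.04. These are descriptions across regions of the same 2 libraries. By contrast, far loci bore little relation to their nearest gene. Across 106 pairs at 5 to 10 kb r with the difference of the nearest gene locus was 0.10, at 10 to 20 kb 0.17 (85 pairs), at 20 to 100 kb −0.02 (193) and beyond that 0.07 (130). For nearer unstranded loci it was 0.43 within 1 kb (442 pairs) and 0.37 at 1 to 5 kb (324 pairs).

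**Figure D4:**
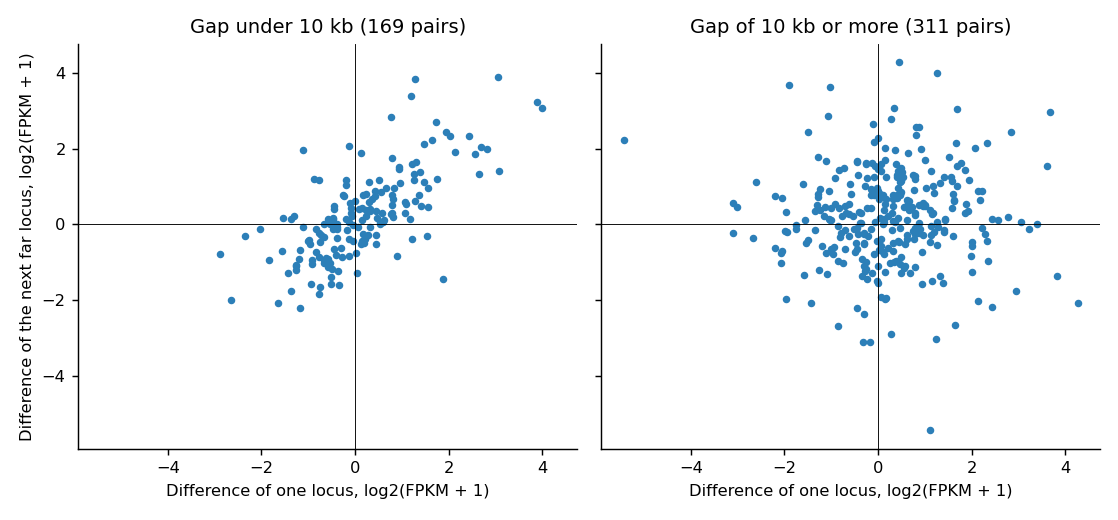
Difference in log2(FPKM + 1), SlRBZ minus wild type, of a far locus (x axis) against that of the next far locus on the chromosome (y axis), 1 point per pair. Left, 169 pairs with a gap under 10 kb, which lie along the diagonal. Right, 311 pairs farther apart, which form a cloud around 0.

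Of the 4 runs of 6 loci, those on chromosomes 1 and 4 were lower in the SlRBZ library throughout. The run on chromosome 1 (85881115 to 85890765) read between 4.76 and 58.2 FPKM in wild type and between 2.87 and 13.1 in the SlRBZ library. Its strongest member, XLOC_002878, read 58.2 and 13.1 FPKM, 4.20-fold lower, while XLOC_002874 read 4.76 and 4.27. The nearest gene locus, Solyc01g106190.2, read 16.9 and 12.7. The run on chromosome 4 (17021991 to 17029883) lies over 369 kb from any gene locus. Its first and longest member, XLOC_013729 with 2052 bp, read 6.22 and 4.14 FPKM. XLOC_013730 read 10.1 and 3.93, XLOC_013731 6.72 and 3.85, and XLOC_013732 7.18 and 3.23. XLOC_013733 read 12.9 and 3.69 and XLOC_013734 11.4 and 6.66, so that all 6 had lower values and 2 passed the 2-fold limit. The run on chromosome 11 (25593577 to 25600214) stayed level, with differences from −0.38 to 0.23. The run on chromosome 12 (55107844 to 55114943) was faint, at 0.140 to 1.36 FPKM in wild type and 0.737 to 3.61 in the SlRBZ library, and 1 of its members was called higher.

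Of 111 runs, 11 had at most 3 fragments in wild type over all their loci, against 27 to 212 in the SlRBZ library, whose depth is 1.91 times larger. No run had so few in the SlRBZ library. Runs consist of loci listed through their reads, which the deeper library supplies more often, so these counts are no comparison of the genotypes. Of the 11, 7 were pairs of loci, and 4 of the 11 were at 0 throughout in wild type. On chromosome 7 (4587961 to 4590038) 4 adjacent loci read 0, 1.07, 0 and 0.632 FPKM in wild type, 3 fragments in all. In the SlRBZ library they read 15.0, 16.3, 13.8 and 14.2 FPKM from 212 fragments. Of these, XLOC_018847 was 14.5-fold higher against the limit of 3 fragments in wild type. XLOC_018846 had a ratio of 15.2 (4.02 to 128) and XLOC_018848 one of 22.5 (3.83 to 911). The nearest gene locus, Solyc07g009490.2, read 17.0 and 20.9 FPKM. On chromosome 1 (56817243 to 56820809), in a run chosen after its values were seen, all 5 loci were listed at 0 in wild type. They read 1.61, 2.32, 5.48, 3.10 and 4.04 FPKM in the SlRBZ library, from 83 fragments, and 4 of the 5 reached a mean of 1 FPKM.

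**Figure D5:**
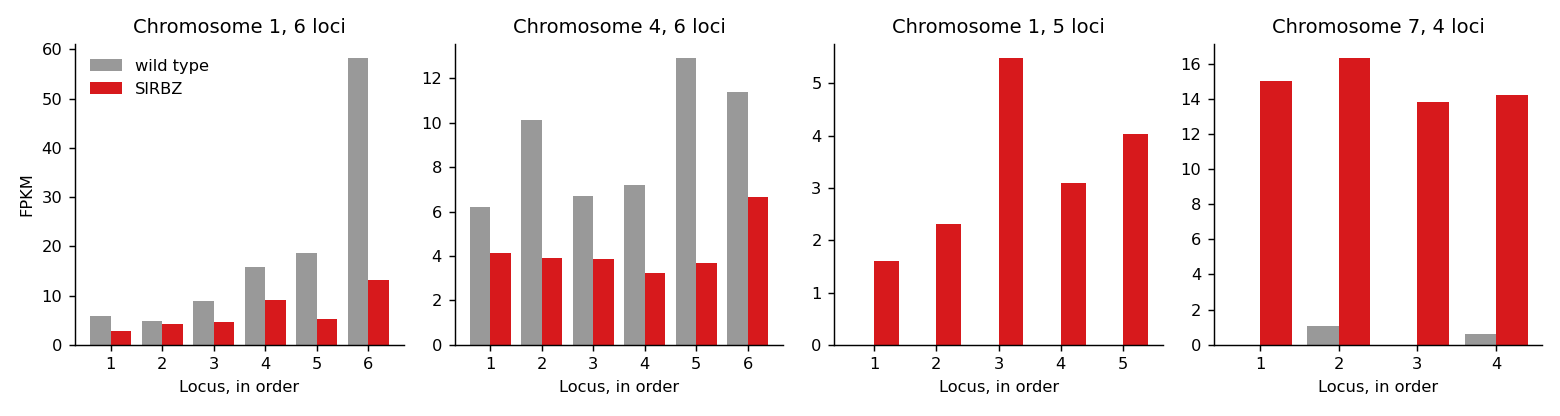
FPKM in wild type (grey) and in the SlRBZ library (red) at each locus, in chromosome order, of 4 runs of far loci, 1 library per bar. The 6 loci on chromosome 1 and the 6 on chromosome 4 are lower in the SlRBZ library at every locus, and the 5 on chromosome 1 and 4 on chromosome 7 are at or near 0 in wild type.

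The 2 most isolated far loci belong to a run of 3 on chromosome 3 (36277337 to 36290085), over 1.4 Mb from a gene locus. XLOC_011885 had 0.424 FPKM in wild type and 2.44 in the SlRBZ library from 1 and 11 fragments, and XLOC_011886 read 0.893 and 3.28 from 6 and 42. The run's other member, XLOC_011887, read 0.604 and 0.792 FPKM. The ratio of XLOC_011886 was 3.67 (1.55 to 10.6), whereas the interval of XLOC_011885, 0.838 to 248, includes 1. Their nearest gene locus, Solyc03g065200.2, read 12.1 and 0.211 FPKM. The longest far locus, XLOC_020667 (chromosome 8, 2642 bp), lies 6377 bp downstream of the pathogenesis-related gene PR-5. It read 0.110 and 0.546 FPKM from 2 and 19 fragments, a ratio of 4.98 (1.20 to 44.1), at a mean too low to enter the counts. XLOC_015339 (chromosome 5, 2002 bp) read 3.86 and 3.58 FPKM, a ratio of 0.928 (0.653 to 1.33).

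By chromosome, the median difference of far loci ran from −0.19 on chromosome 4 to 0.48 on chromosome 6. Chromosomes 4, 5 and 7 had equal numbers of higher and lower loci, at 5, 7 and 10 in each direction. On every other chromosome, and on sequence 0, higher loci outnumbered lower ones, and chromosome 2 had 3 higher and no lower among 30. Loci at 0 in wild type, listed only through the SlRBZ library, are in these counts. Such far loci numbered 8 on chromosome 1, 8 on chromosome 11 and 4 on chromosome 12, where the outnumbering rests on them. Shares over all loci of each chromosome were not computed. By distance, the share of higher loci was 17.0% at 5 to 10 kb, 17.6% at 10 to 20 kb, 25.9% at 20 to 50 kb, 28.2% at 50 to 100 kb and 33.3% at 100 to 200 kb. It was 17.5% at 200 to 500 kb and 38.5% (5 of 13) beyond that. The shares of lower loci in the same order were 12.3%, 21.2%, 20.4%, 7.06%, 8.33%, 17.5% and 7.69%.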

How the data were processed

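Per the file headers, the authors deposited FPKM (fragments per kilobase and 1 M fragments, M being mega) for each locus in 1 wild-type and 1 SlRBZ overexpression leaf library. The submitters' processing notes name TopHat. For its version, and for the counting tool, annotation and build, nothing is given in the sources used here. Coordinates are those of the table, and 0 value columns were left untied to a sample. Span is end minus start plus 1, and distance runs to the nearest edge of a gene locus. Differences are log2(FPKM + 1), SlRBZ minus wild type, where the mean FPKM was 1 or more, called at 1 (2-fold), with no test. Named regions are the 5 highest, the 5 largest differences each way among regions above 0 in both libraries, up to 3 at 0 in each library, the 3 longest, the 2 farthest and the 2 largest runs. The other runs described, the joining of runs into single regions and the split by whole fragments were chosen after values were seen.

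The worth of 1 fragment was fitted on 1836 (SlRBZ) and 1729 (wild type) unstranded loci of at least 300 bp nearer to genes, as a total and a length offset (199 bp). At far loci 78.3% and 79.3% of values were then whole within 0.05. On simulated fragments for 1861 such loci the fit returned the totals and the offset used. Poisson and binomial intervals are exact at 95% and cover counting error only. The regions and lists were chosen with earlier results of these data known. Calculations used Python 3.11.15, pandas 2.3.3, numpy 2.4.6 and scipy 1.17.1. Alternatives changed the pseudocount, level filter, scaling, span and distance.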

Additional observations from a re-analysis of the deposited data

How the results depend on the processing

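With 120 higher and 75 lower far loci and a median difference of 0.16 as reported, a pseudocount of 5 left 30 higher and 31 lower. A mean of at least 5 FPKM left 31 higher and turned the median to −0.25. Scaling to equal upper quartiles of gene loci raised the median to 0.37, with 28.2% higher and 10.9% lower (18.8% and 11.3% of all loci). Scaling without the 100 most abundant gene loci gave 204 higher, 35 lower and a median of 0.75 (39.7% and 6.81%, against 30.9% and 6.86% of all loci). The median of all gene loci was −0.05, and became 0.18 and 0.57 under these scalings. A span of at least 500 bp kept 59 higher and 33 lower loci, with median levels of 2.96 FPKM in wild type and 3.50 in the SlRBZ library. A distance of at least 20000 bp kept 44 lower loci and put 46.4% in gene-poor windows, and a limit of under 10 gene loci per window put 58.1% there. Fewer loci enter under these span, distance and level limits. At least 50 fragments over both libraries, chosen after seeing the data, left 17 higher, 27 lower and a median of −0.13. Higher far loci thus outnumbered lower ones over all regions but not over those of 50 or more fragments, in libraries whose depth differed 1.91-fold. The cause was not tested. For the results with settings not named here, values stayed within 1.5 times for counts and within the 95% interval for medians and shares. No paired analysis was possible because each genotype has 1 library, so no replicate could be left out either. Depth limits single regions: 3 fragments are worth 3.14 FPKM in wild type at a span of 327 bp.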

Other observations

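Far loci whose fragments came out as fractions in at least 1 library differed from those with whole fragments. Among tested far loci with 20 to 100 fragments over both libraries, 1 of 78 with fractional values passed the 2-fold limit upward and 15 (19.2%) downward, with a median difference of −0.26. Of 221 with whole values, 55 (24.9%) passed it upward and 23 (10.4%) downward, and their median was 0.18. Fractional fragments can arise where a read is divided among several places. The fractional loci also had higher wild-type levels, with a median of 6.74 FPKM against 3.94. The part of this in the difference was not tested.

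Gene-free unstranded regions at least 5000 bp from a gene locus but shorter than 300 bp numbered 209, with median levels of 38.6 FPKM in wild type and 42.5 in the SlRBZ library. These spans are close to the fitted length offset, so a single fragment carries a large FPKM.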
